A study of Mus musculus with 9 samples.

Results

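The levels of genes that make, move and break down cholesterol, fatty acids and lipoproteins were compared in 3 mouse fibroblast lines. Of 40 listed genes, 39 were measured, at 89 of the 45037 probesets tested, and each of these probesets carries the symbol of that gene alone in the array annotation. The remaining listed gene, Nr1h2, which encodes the nuclear receptor LXR beta, had no such probeset and was not analysed here. v-Src cells are Balb/c-3T3 fibroblasts stably transfected with pMvSrc, which expresses v-Src, the oncogenic tyrosine kinase that Rous sarcoma virus carries. STAT3-C cells are Balb/c-3T3 fibroblasts that stably carry pRc/CMV-STAT3C, a plasmid with a CMV promoter that expresses STAT3-C, a constitutively active form of the transcription factor STAT3. Control cells are the Balb/c-3T3 fibroblasts without either plasmid, and all lines were kept in DMEM with bovine calf serum. RNA was pooled from 5 dishes at each of 3 passages, and each pool was hybridized to 1 Affymetrix mouse genome array. Each line is thus 1 lineage of cells sampled at 3 passages, and p-values take in the variation from passage to passage but none from clone to clone.

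Cholesterol is built from acetyl-CoA by way of mevalonate, squalene and lanosterol. The SREBP transcription factors, which the escort protein SCAP carries out of the endoplasmic reticulum and the INSIG proteins hold back when sterols are plentiful, switch on the enzymes of this pathway and those of fatty acid synthesis and desaturation. LXR nuclear receptors bind oxysterols and switch on sterol efflux, while lipoprotein receptors and lipases supply the cell with cholesterol and fatty acids from outside.

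Values are Robust Multichip Average (RMA) expression on the log2 scale, so that a difference of 1 is a 2-fold change, and SE is the standard error that limma gives over 3 arrays a line. A gene was called higher or lower in limma at a Benjamini-Hochberg adjusted p under 0.05 over all 45037 probesets and a fold of at least 1.5, and each of 18193 genes was read at its main probeset, the brightest on average across the 9 arrays. Array medians lay between 6.27 and 6.39 and lower quartiles between 5.07 and 5.15. Levels below the lower quartile are near background, and fold changes to or from them are limited by it. Correlations across probesets were 0.990 to 0.995 within a line, 0.971 to 0.977 between the transfected lines, and 0.943 to 0.948 between either of these and the control arrays. Socs3, a STAT3 target that serves as a check of the labels, was higher by 3.63 in v-Src cells and by 1.43 in STAT3-C cells on the log2 scale. Stat3 itself was at 10.69, 10.47 and 10.94 on v-Src arrays and at 9.52, 9.52 and 9.18 on STAT3-C arrays, against 8.89, 9.23 and 9.38 on control arrays, a log2 fold change of 1.53 (limma adjusted p = 0.000537) and 0.24 (0.291). Another Stat3 probeset was called higher in both lines, by 1.30 in v-Src cells (limma adjusted p = 0.000504) and by 0.72 in STAT3-C cells (0.00827), at 9.85, 9.86 and 9.30 on STAT3-C arrays against 8.93, 8.92 and 8.99 on control arrays. Mouse Src had -0.11 and -0.12, and whether these probesets read the transgenes was not tested.

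Of 12 fibroblast markers measured, none lay below the lower quartile on all arrays. Marker levels were summed on the linear scale and the log2 of the sum taken, so that the brightest markers weigh most. For the fibroblast markers this log2 sum was 15.65 to 15.99 on v-Src arrays and 15.55 to 15.60 on STAT3-C arrays. On control arrays it was 16.07 to 16.15. Marker by marker, 7 of the 12 were called lower and 2 higher in v-Src cells and 8 lower and 1 higher in STAT3-C cells, with median log2 fold changes of -1.48 and -1.60. The lowest values in v-Src cells were those of Thy1 (-5.17), Pdgfrb (-5.06) and Lum (-3.16). Those in STAT3-C cells were of Thy1 (-5.18), Lum (-3.51) and Col6a1 (-2.39), with Pdgfrb at -1.93. Thy1 is a surface marker of fibroblasts, Pdgfrb a growth factor receptor, Lum a matrix proteoglycan and Col6a1 a collagen gene. Over 4 adipocyte markers the log2 sum was 9.59 to 10.50 on v-Src arrays and 11.49 to 12.13 on STAT3-C arrays. It was 7.77 to 8.14 on control arrays. Of these 4 markers, Adipoq and Cidec, the defining markers, were below the lower quartile on all 9 arrays. Fabp4, a fatty acid binding protein, alone was called. For 8 macrophage markers the log2 sum was 10.85 to 11.14 on v-Src arrays and 10.92 to 11.39 on STAT3-C arrays. On control arrays it was 9.90 to 10.28. Cd14 (2.12 in each line) and Lyz2 (0.86 and 1.95) were called higher in both lines, and Cd68 (1.14) in STAT3-C cells alone. The others were not called, among them Adgre1 (0.11 and -0.02) and Mpeg1 (-0.47 and -0.78). Ptprc and Itgam were below the lower quartile on every array. These marker levels differed between the same lines in which the lipid genes were compared, and their part in those results was not tested.

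Compared with control cells, 8 of the 39 genes were higher and 3 were lower in v-Src cells, where 9.54% of all genes were called higher and 10.4% lower. In STAT3-C cells 6 were higher and 9 were lower, where 11.9% of all genes were called higher and 10.3% lower. Both comparisons use the same 3 control arrays. Sqle, Dhcr7, Abca1, Vldlr and Apol6 were called higher in both, and Scap, Ch25h and Lipa were called lower in both. Cyp51, Scd1 and Scd2 were called higher in v-Src cells, and Ebp was called higher in STAT3-C cells, without a call in the other comparison. Srebf1, Elovl6, Fads1, Fads2, Lrp1 and Lpl were called lower in STAT3-C cells and were not called in v-Src cells. The other 21 genes were called in neither comparison. A call in 1 line alone is no test of a difference between the lines, which the direct comparison further on gives. The median log2 fold change of the 39 genes was 0.20 in v-Src cells and -0.05 in STAT3-C cells, beside medians of 0.02 and 0.04 over all genes. In bulk RNA, fewer cells of a kind and less RNA per cell cannot be told apart.

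**Figure D1:**
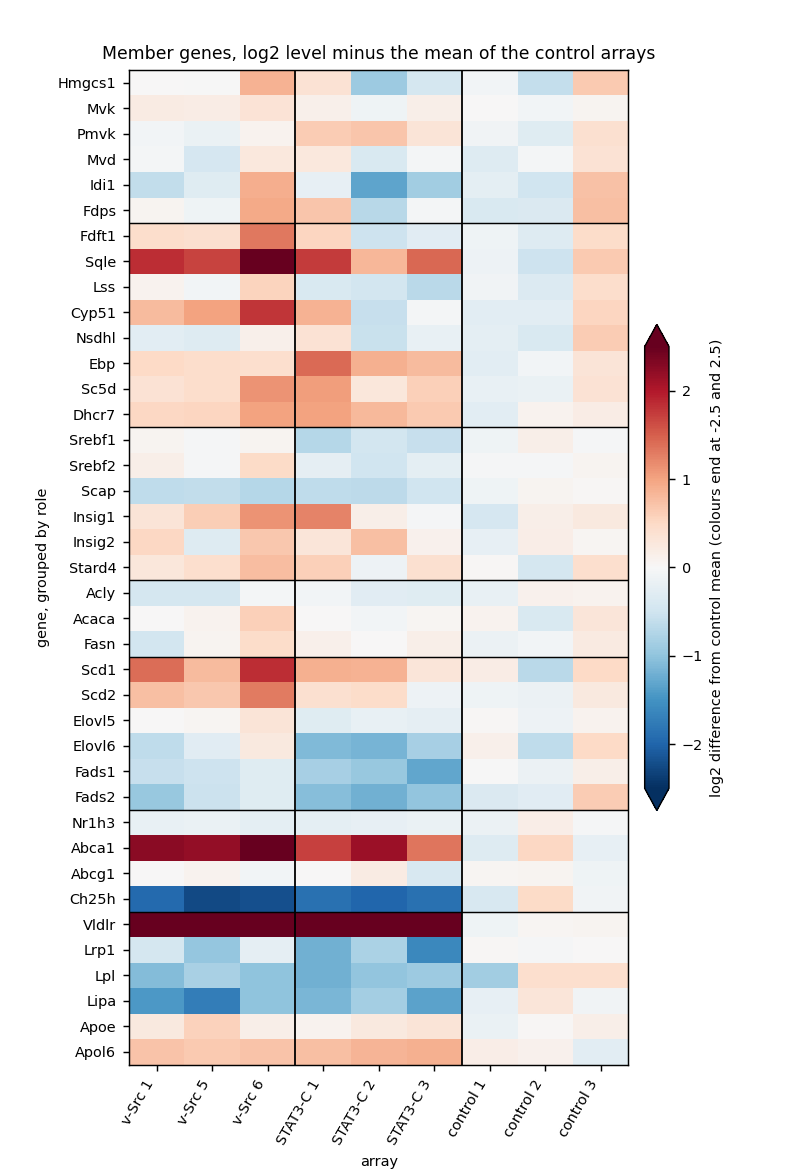
Log2 level of each of the 39 genes on each of the 9 arrays, minus the mean of the 3 control arrays, with genes in rows grouped by role and arrays in columns (v-Src, STAT3-C, control). Colours end at -2.5 and 2.5, which Vldlr exceeds on every v-Src and STAT3-C array. Ch25h is the darkest blue row on these 6 arrays.

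**Figure D2:**
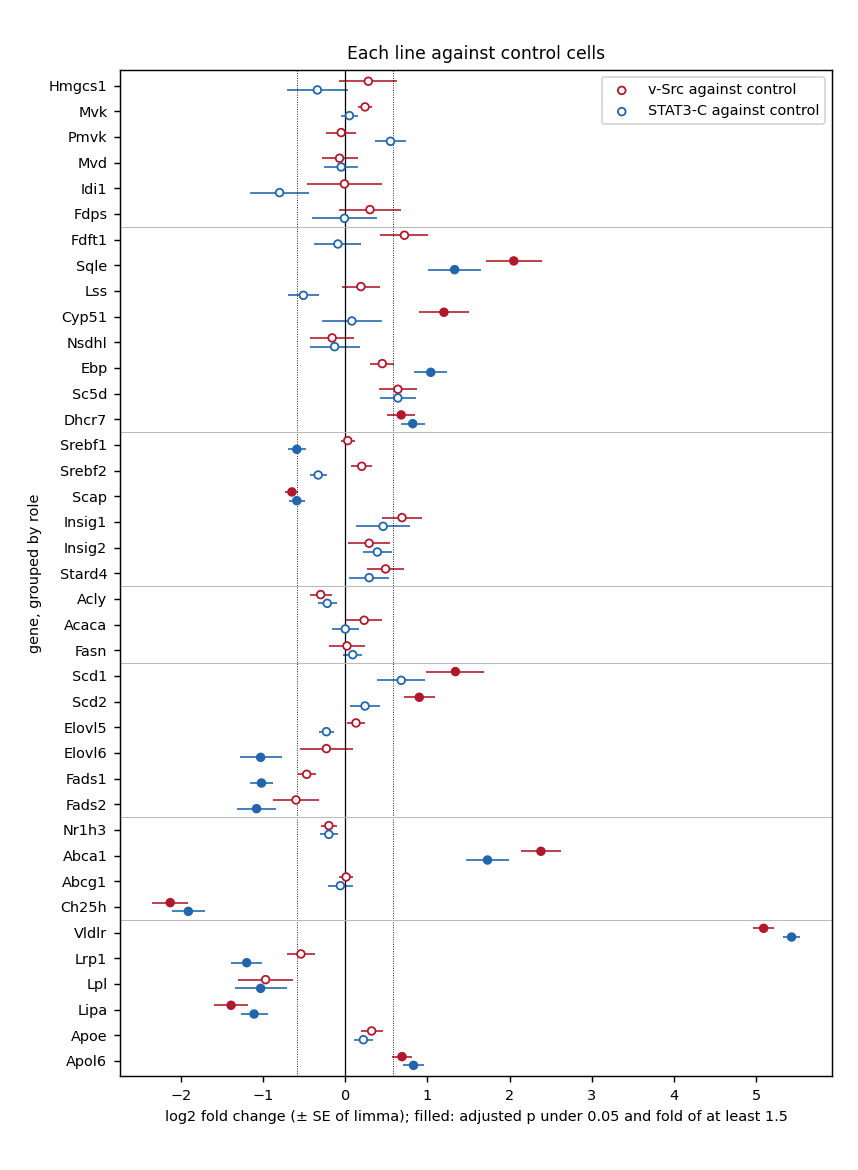
Log2 fold change of each gene in v-Src cells and in STAT3-C cells against control cells, with bars of 1 SE from limma (3 arrays a line). Filled points passed both thresholds, dotted lines mark a fold of 1.5 in either direction, and Vldlr stands apart at 5.09 and 5.43.

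Among the listed enzymes of the sterol pathway, the steps after farnesyl diphosphate held all of the calls against control cells. Of 8 listed enzymes from squalene synthesis onward, 3 were higher in v-Src cells (Sqle, Cyp51 and Dhcr7) and 3 in STAT3-C cells (Sqle, Ebp and Dhcr7). None of the 8 was lower. Of all genes, 9.54% were called higher in v-Src cells and 11.9% in STAT3-C cells, and 10.4% and 10.3% lower. None of the 6 enzymes of the mevalonate steps was called by limma in either comparison, and 1 of them had an unadjusted p under 0.05 in v-Src cells (Mvk) and 1 in STAT3-C cells (Pmvk). The median log2 fold change of the 8 later enzymes was 0.66 in v-Src cells and 0.36 in STAT3-C cells, that of the 6 mevalonate enzymes 0.12 and -0.03. The later and the mevalonate enzymes were not tested against each other.

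Sqle encodes squalene epoxidase, which adds the first oxygen to squalene. Its log2 level was 11.09, 10.92 and 11.86 on the v-Src arrays and 10.99, 10.07 and 10.67 on the STAT3-C arrays, against 9.11, 8.72 and 9.90 on the control arrays. Every array of either transfected line lay above every control array. The log2 fold change was 2.05 in v-Src cells (SE 0.344, limma adjusted p = 0.00426), a 4.15-fold level, and 1.33 in STAT3-C cells (SE 0.320, limma adjusted p = 0.0149), a 2.52-fold level. The STAT3-C call was lost without control 1 (1.27, limma adjusted p = 0.0566), STAT3-C 1 (1.13, 0.0690) or STAT3-C 3 (1.29, 0.0541).

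Cyp51, the lanosterol demethylase, read 8.55, 8.75 and 9.54 in v-Src cells and 8.62, 7.17 and 7.71 in STAT3-C cells, against 7.48, 7.49 and 8.29 in control cells. The v-Src arrays all lay above the control arrays, while the STAT3-C arrays overlapped them. On the log2 scale the change was 1.20 in v-Src cells (SE 0.309, limma adjusted p = 0.0255) and 0.08 in STAT3-C cells (adjusted p = 0.895), and 1 of its other 2 probesets, 1422533_at, was also higher in v-Src cells (1.25, adjusted p = 0.0202). Without v-Src 6 (0.90, limma adjusted p = 0.0609), control 1 (1.06, 0.0910) or control 2 (1.07, 0.0792) the call of the first probeset was lost.

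Dhcr7 encodes the reductase that finishes cholesterol from its last precursor. It stood at 7.87, 7.88 and 8.35 in v-Src cells and at 8.35, 8.16 and 8.01 in STAT3-C cells, against 7.08, 7.44 and 7.53 in control cells, with no overlap between either line and the controls. It was higher by 0.68 in v-Src cells (SE 0.171, limma adjusted p = 0.0227) and by 0.82 in STAT3-C cells (SE 0.144, limma adjusted p = 0.00345) on the log2 scale. The v-Src call was lost without v-Src 6 (0.52, limma adjusted p = 0.0561) or control 1 (0.55, 0.0688).

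Ebp, the sterol isomerase of the late pathway, was at 9.60, 9.54 and 9.53 on v-Src arrays and at 10.53, 10.00 and 9.90 on STAT3-C arrays, against 8.84, 9.04 and 9.44 on control arrays. The 3 lines did not overlap, with STAT3-C arrays highest and control arrays lowest. Its log2 fold change was 0.45 in v-Src cells (SE 0.148, limma adjusted p = 0.0591) and 1.04 in STAT3-C cells (SE 0.202, limma adjusted p = 0.00561), and without control 3 the v-Src value passed both thresholds (0.62, adjusted p = 0.0056). Sc5d, which introduces a double bond in the same late steps, had the value 0.64 in both comparisons at its main probeset (adjusted p = 0.0860 in v-Src cells and 0.0597 in STAT3-C cells). Another probeset of Sc5d, 1434520_at, ran the other way and was lower in STAT3-C cells (-0.67, limma adjusted p = 0.0259), at 6.69, 6.52 and 6.32 in STAT3-C cells against 7.30, 6.77 and 7.47 in control cells.

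The remaining listed enzymes of the pathway passed in neither comparison with control cells. Fdft1, squalene synthase, had log2 fold changes of 0.72 in v-Src cells and -0.09 in STAT3-C cells, and Lss, which closes the sterol rings, 0.19 and -0.51. Hmgcs1, which makes HMG-CoA, had 0.28 and -0.34, Idi1, the isopentenyl diphosphate isomerase, -0.01 and -0.80, and Fdps, farnesyl diphosphate synthase, 0.30 and -0.01. Mvk and Pmvk, the kinases of mevalonate, had 0.24 and -0.05 in v-Src cells and 0.05 and 0.55 in STAT3-C cells. Mvd, the decarboxylase that follows them, and Nsdhl, which removes a carbon from the sterol nucleus, lay between -0.16 and -0.05 in both comparisons. Outside the list, Msmo1 of the same pathway was called higher in v-Src cells (1.43, limma adjusted p = 0.00763). Hsd17b7 and Tm7sf2, also outside it, were called in neither comparison with control cells.

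The sterol enzymes varied more between passages of 1 line than genes at large. The range over the 3 arrays of a line had a median of 0.72 in v-Src cells, 0.84 in STAT3-C cells and 0.78 in control cells over the 14 enzymes, beside 0.19, 0.24 and 0.25 over all genes. All genes include many near background, the mean level of the enzymes lay above the median gene, and genes of matched level were not compared. They also varied together, since 13 of the 14 were highest on v-Src 6 among the v-Src arrays, 12 on STAT3-C 1 among the STAT3-C arrays and 14 on control 3 among the control arrays. Of all genes, 24.6%, 30.3% and 32.4% were highest on these 3 arrays of their lines. The mean log2 level of the 14 enzymes was 8.86, 8.82 and 9.47 on v-Src 1, 5 and 6 and 9.19, 8.45 and 8.69 on STAT3-C 1, 2 and 3, against 8.40, 8.31 and 9.06 on control 1, 2 and 3, while the median of all genes stayed between 7.13 and 7.22. All 3 peaks were shared by 11 of the 14 enzymes (the exceptions were Mvk, Pmvk and Ebp), beside 3.28% of all genes.

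Outside the pathway the same 3 arrays were highest for 5 of the other 25 genes. These were Srebf2, Insig1 and Stard4, which encode the SREBP-2 transcription factor, a retention protein of the SREBP pathway and a sterol transfer protein, and Scd1 and Fads1, which encode desaturases. The genes of fatty acid synthesis, of LXR and sterol efflux and of lipoprotein uptake held none with this pattern. It was noticed after the values were seen and is a description of these 9 arrays, with no test. Of the 39 genes, 8 were called higher in v-Src cells without control 3, and 5 both without v-Src 6 and without control 1, which is no peak array. Over all genes these counts were 1720, 1626 and 1591, beside 1736 on all arrays. In STAT3-C cells 8 were called higher without control 3, and 5 without STAT3-C 1 as well as without STAT3-C 3 or control 1, neither of which is a peak array.

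**Figure D3:**
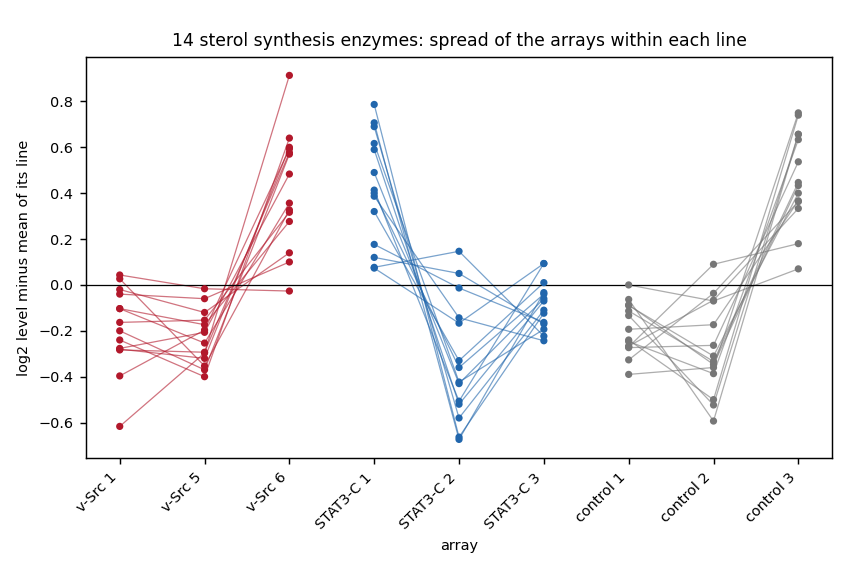
Log2 level of the 14 listed sterol synthesis enzymes on each array minus the mean of the 3 arrays of its line, with a thin line joining the points of 1 gene within a cell line. The arrays have no order within a line. Points of v-Src 6, STAT3-C 1 and control 3 lie above those of the other arrays of their lines for 13, 12 and 14 of the 14 enzymes.

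Promoter sequence from RefSeq (GRCm38.p6) was held for 29 of the 39 genes, in 41 windows of 300 bases. No window was held for Sqle, Fdft1, Fdps, Stard4, Scd1, Scd2, Fads1, Lpl, Abcg1 and Apol6. The sterol regulatory element of the SREBP proteins was searched on both strands as the exact letters TCACNCCAC. It was in 1 of these 41 windows (2.44%), that of Hmgcs1, and in 1.24% of 32851 windows of all genes. Variants of the element were not searched, so a window without a match may still hold a variant. CCAAT was in 51.2% of the windows of these genes and 37.4% of all windows, and the GC box GGGCGG in 61.0% and 35.7%. TTCNNNGAA, the palindrome that STAT proteins bind, was in 4.88% (Ebp and Lrp1) and 8.30%. Stretches of 3 sterol enzymes are shown. Hmgcs1 followed the shared array pattern and matches the sterol element as searched. Cyp51 followed the pattern and was called in v-Src cells, and Ebp lay outside it and was called in STAT3-C cells. Each stretch is the 180 bases before the annotated start, at chr13:119690171-119690350 on the plus strand for Hmgcs1, chr5:4104698-4104877 on the minus strand for Cyp51 and chrX:8193513-8193692 on the minus strand for Ebp. Capitals mark the sterol element in Hmgcs1, the GC box and CCAAT box in Cyp51 and the STAT element in Ebp, and other matches are left in lower case.
Hmgcs1: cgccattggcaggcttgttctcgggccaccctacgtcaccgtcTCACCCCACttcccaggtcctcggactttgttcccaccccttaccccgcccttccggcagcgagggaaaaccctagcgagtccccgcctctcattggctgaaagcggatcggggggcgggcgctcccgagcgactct
Cyp51: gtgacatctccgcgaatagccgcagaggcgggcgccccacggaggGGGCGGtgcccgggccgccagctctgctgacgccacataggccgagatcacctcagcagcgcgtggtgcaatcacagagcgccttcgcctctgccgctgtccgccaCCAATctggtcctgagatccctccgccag
Ebp: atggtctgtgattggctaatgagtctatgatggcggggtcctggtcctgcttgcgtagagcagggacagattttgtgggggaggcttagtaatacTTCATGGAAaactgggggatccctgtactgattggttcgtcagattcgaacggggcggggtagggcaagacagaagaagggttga
The sterol element of Hmgcs1 lies 137 to 129 bases before the start, the GC box and CCAAT box of Cyp51 135 to 130 and 29 to 25 bases before it, and the STAT element of Ebp 85 to 77 bases before it. A match describes letters in the window and not binding.

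Among the 6 regulators of the SREBP proteins and of sterol transfer, Scap was lower in both transfected lines and Srebf1 was lower in STAT3-C cells, and none was higher. Scap, the escort of the SREBP proteins, was at 9.11, 9.14 and 9.04 in v-Src cells and at 9.12, 9.10 and 9.25 in STAT3-C cells, against 9.65, 9.81 and 9.77 in control cells. All 6 arrays of the transfected lines lay below all control arrays. The change in log2 level was -0.65 in v-Src cells (SE 0.0777, limma adjusted p = 0.000937) and -0.59 in STAT3-C cells (SE 0.0939, limma adjusted p = 0.00213), close to the fold threshold. The STAT3-C call was lost through the size of the fold without control 2 (-0.56), control 3 (-0.58), STAT3-C 1 (-0.57) or STAT3-C 2 (-0.56), and both calls were lost in the mean of both probesets of the gene (-0.35 in each). The second probeset, 1442885_at, lay near the lower quartile, at 5.06 to 5.55, and had -0.04 in v-Src cells and -0.11 in STAT3-C cells.

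Srebf1 encodes the SREBP-1 proteins, regulators of fatty acid genes above all. It read 9.12, 9.02 and 9.12 on v-Src arrays and 8.33, 8.59 and 8.47 on STAT3-C arrays, against 8.95, 9.19 and 9.02 on control arrays. The STAT3-C arrays lay below all the others, and the v-Src and control arrays overlapped. Its log2 fold change was 0.03 in v-Src cells (adjusted p = 0.805) and -0.59 in STAT3-C cells (SE 0.109, limma adjusted p = 0.00451). The call was lost without control 2 or STAT3-C 1 (-0.52 each) and after a second quantile normalization (-0.58), in each case on the size of the fold. Srebf2, which encodes SREBP-2, the regulator of sterol genes, had 0.20 in v-Src cells and -0.33 in STAT3-C cells (adjusted p = 0.0476, under the fold threshold).

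The INSIG genes and Stard4 were not called at their main probesets. Insig1 had 0.69 in v-Src cells (SE 0.246, limma adjusted p = 0.0777) and 0.46 in STAT3-C cells, and Stard4, a carrier of free cholesterol, had 0.49 and 0.29. Insig2 had 0.29 and 0.39 at its main probeset, while its other 2 probesets were higher in STAT3-C cells. At 1417980_a_at, Insig2 was at 8.56, 7.53 and 8.70 in v-Src cells and at 9.11, 9.52 and 8.32 in STAT3-C cells, against 7.21, 7.76 and 7.31 in control cells. The STAT3-C arrays of this probeset lay above all control arrays, with a log2 fold change of 1.56 (SE 0.287, limma adjusted p = 0.00436). At 1417982_at the value was 0.64 in STAT3-C cells (adjusted p = 0.0253).

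None of the 3 genes of fatty acid synthesis was called by limma at its main probeset in any comparison, and none had an unadjusted p under 0.05. Fasn, fatty acid synthase, had log2 fold changes of 0.02 in v-Src cells (95% interval -0.51 to 0.55) and 0.09 in STAT3-C cells (-0.18 to 0.36). Acaca, acetyl-CoA carboxylase, had 0.23 and 0.00, and Acly, which makes cytosolic acetyl-CoA from citrate, had -0.30 and -0.22. Other probesets of both genes passed in 1 line each. Acaca at 1427595_at was 6.50, 7.26 and 7.54 in v-Src cells, against 5.73, 6.03 and 6.12 in control cells, a log2 fold change of 1.14 (SE 0.256, limma adjusted p = 0.0147). Acly at 1451666_at was 10.38, 10.05 and 10.27 in STAT3-C cells, against 10.85, 10.94 and 11.11 in control cells, a log2 fold change of -0.73 (SE 0.119, limma adjusted p = 0.00239). The probesets of a gene thus gave different calls, and the part of the transcript that each reads was not analysed here.

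The desaturases and elongases, which put double bonds into fatty acids and lengthen them, held 2 calls in v-Src cells and 3 in STAT3-C cells. Of 6 genes, Scd1 and Scd2 were higher in v-Src cells and none was lower, while Elovl6, Fads1 and Fads2 were lower in STAT3-C cells and none was higher. Scd2, a stearoyl-CoA desaturase that makes monounsaturated fatty acids, was at 12.03, 11.95 and 12.57 on v-Src arrays and at 11.68, 11.74 and 11.15 on STAT3-C arrays, against 11.18, 11.13 and 11.53 on control arrays. The v-Src arrays lay above all the others. The log2 fold change at this probeset was 0.90 in v-Src cells (SE 0.187, limma adjusted p = 0.0105) and 0.24 in STAT3-C cells (adjusted p = 0.356). Its other 2 probesets gave larger values in v-Src cells, 1.55 at 1415823_at and 2.20 at 1415824_at, and 0.35 and 0.37 in STAT3-C cells.

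Scd1, the other stearoyl-CoA desaturase measured, was at 10.01, 9.40 and 10.46 in v-Src cells and at 9.50, 9.47 and 8.91 in STAT3-C cells, against 8.79, 7.94 and 9.10 in control cells. Its v-Src arrays lay above the control arrays, and its STAT3-C arrays overlapped them. On the log2 scale the change was 1.34 in v-Src cells (SE 0.353, limma adjusted p = 0.0276) and 0.68 in STAT3-C cells (SE 0.291, limma adjusted p = 0.118). At its second probeset, 1415965_at, Scd1 was called higher in both lines, by 1.73 in v-Src cells (adjusted p = 0.0166) and 1.20 in STAT3-C cells (adjusted p = 0.0124). The v-Src call of the main probeset was lost without v-Src 1 (1.32, adjusted p = 0.0888), v-Src 6 (1.09, 0.0885), control 1 (1.43, 0.0647) or control 2 (1.01, 0.0583), by limma on the arrays left.

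Fads2, the delta-6 desaturase of polyunsaturated fatty acids, was lower at 2 of its 3 probesets in STAT3-C cells. At the main probeset it was 7.62, 8.03 and 8.26 in v-Src cells and 7.51, 7.37 and 7.58 in STAT3-C cells, against 8.21, 8.29 and 9.20 in control cells. The STAT3-C arrays lay below all control arrays and the v-Src arrays overlapped them, with log2 fold changes of -0.60 in v-Src cells (adjusted p = 0.166) and -1.08 in STAT3-C cells (SE 0.242, limma adjusted p = 0.0111). At 1419031_at, Fads2 was 6.75, 7.20 and 7.28 in v-Src cells and 6.57, 6.32 and 6.16 in STAT3-C cells, against 8.61, 8.53 and 9.09 in control cells. Here both lines lay below all control arrays, at -1.67 in v-Src cells (SE 0.191, limma adjusted p = 0.000778) and -2.40 in STAT3-C cells (SE 0.170, limma adjusted p = 3.8e-05). The third probeset, 1443838_x_at, lay close to the lower quartile and had 0.24 and 0.11.

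Fads1, the delta-5 desaturase that acts after Fads2, was at 9.31, 9.37 and 9.58 on v-Src arrays and at 9.06, 8.94 and 8.60 on STAT3-C arrays, against 9.88, 9.75 and 10.04 on control arrays. The 3 lines did not overlap. Its log2 fold change was -0.47 in v-Src cells (SE 0.110, limma adjusted p = 0.0176) and -1.02 in STAT3-C cells (SE 0.141, limma adjusted p = 0.00103), the v-Src value being under the fold threshold. In the mean of both probesets of Fads1 the STAT3-C value was -0.43 and no longer passed the fold threshold. Elovl6, which lengthens palmitate to stearate, was at 8.12, 8.46 and 8.99 in v-Src cells and at 7.65, 7.58 and 7.92 in STAT3-C cells, against 8.88, 8.12 and 9.24 in control cells. The STAT3-C arrays lay below the rest, and the log2 fold change was -0.23 in v-Src cells (adjusted p = 0.638) and -1.03 in STAT3-C cells (SE 0.257, limma adjusted p = 0.0175). The STAT3-C call of Elovl6 was lost without control 1 (-0.97, adjusted p = 0.0656), control 3 (-0.79, 0.0514), STAT3-C 1 (-1.0, 0.0711) or STAT3-C 2 (-0.96, 0.0633), by limma on the arrays left. Elovl5, which lengthens polyunsaturated fatty acids, had 0.13 and -0.23.

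Abca1, which exports cholesterol to lipoproteins and is a textbook target of LXR, was higher in both lines at all 3 probesets. Its main probeset read 11.74, 11.68 and 12.19 in v-Src cells and 11.20, 11.63 and 10.82 in STAT3-C cells, against 9.17, 10.01 and 9.28 in control cells. No array of either transfected line overlapped the controls. The change in log2 level was 2.38 in v-Src cells (SE 0.239, limma adjusted p = 0.000444), a 5.21-fold level, and 1.73 in STAT3-C cells (SE 0.261, limma adjusted p = 0.00167), a 3.31-fold level. The other 2 probesets gave 3.04 and 3.82 in v-Src cells and 1.46 and 1.92 in STAT3-C cells. The value of 3.82, at 1450392_at, rests on control levels of 4.62, 5.19 and 5.01, of which 2 are below the lower quartile.

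None of the other 3 genes of this group was higher in either line. Ch25h, the cholesterol 25-hydroxylase that makes an oxysterol able to bind LXR, was at 5.59, 5.29 and 5.35 on v-Src arrays and at 5.68, 5.55 and 5.68 on STAT3-C arrays, against 7.14, 8.02 and 7.46 on control arrays. Both lines lay well below the controls and a little above the lower quartile. The log2 fold change was -2.13 in v-Src cells (SE 0.216, limma adjusted p = 0.00046) and -1.91 in STAT3-C cells (SE 0.202, limma adjusted p = 0.000274). Nr1h3, which encodes LXR alpha, had -0.20 in both comparisons, with adjusted p values of 0.184 and 0.203 from limma. Abcg1, another sterol exporter under LXR, had 0.01 in v-Src cells (95% interval -0.19 to 0.20) and -0.06 in STAT3-C cells (-0.42 to 0.29).

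Vldlr, the very low density lipoprotein receptor, showed the largest change of the 39 genes in each line against control cells. Its main probeset, 1434465_x_at, was at 10.59, 10.15 and 10.42 in v-Src cells and at 10.66, 10.85 and 10.64 in STAT3-C cells, against 5.18, 5.33 and 5.36 in control cells, where it lay just above the lower quartile. On the log2 scale the change was 5.09 in v-Src cells (SE 0.124, limma adjusted p = 1.23e-06), a 34.1-fold level, and 5.43 in STAT3-C cells (SE 0.101, limma adjusted p = 8.75e-08), a 43.0-fold level. Among 18193 genes these were the values ranked 10 and 8 from the highest. All 6 probesets of Vldlr were called higher in v-Src cells, by 0.64 to 5.16, and 5 of 6 in STAT3-C cells, the exception having a log2 fold change of 0.55 at 1451156_s_at. On the control arrays 4 of the 6 probesets were below the lower quartile, so the size of their changes is limited by background. The study's text had named Vldlr and Apol6 and its list, chosen on these arrays, holds Vldlr, so these values are not independent evidence of their direction.

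**Figure D4:**
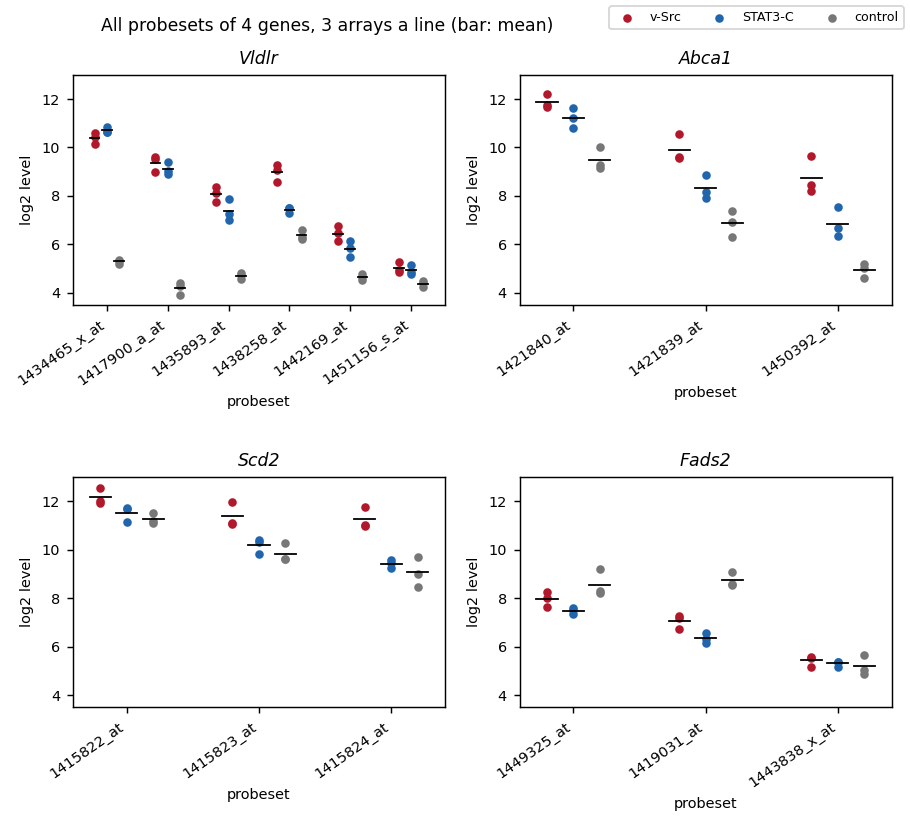
Log2 level of every probeset of Vldlr, Abca1, Scd2 and Fads2, with 1 point an array (3 v-Src, 3 STAT3-C and 3 control arrays at each probeset) and a bar at the mean. Vldlr and Abca1 lie above control at each probeset, Scd2 is highest in v-Src cells at all 3, and Fads2 is lowest in STAT3-C cells at 2 of 3.

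The promoters of Vldlr and Abca1 are shown since of the 39 genes these rose most in both lines. The stretches are the 180 bases before the annotated start in RefSeq (GRCm38.p6), at chr19:27216840-27217019 on the plus strand for Vldlr, which has 2 annotated windows, and chr4:53159896-53160075 on the minus strand for Abca1. Capitals mark a CCAAT box, read here as ATTGG on the opposite strand, and a GC box, read as CCGCCC on the opposite strand, in Vldlr, and a pair of GC boxes in Abca1.
Vldlr: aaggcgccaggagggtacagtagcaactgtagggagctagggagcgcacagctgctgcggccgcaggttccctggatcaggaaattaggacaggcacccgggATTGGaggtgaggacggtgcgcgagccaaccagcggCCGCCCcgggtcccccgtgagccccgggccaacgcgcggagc
Abca1: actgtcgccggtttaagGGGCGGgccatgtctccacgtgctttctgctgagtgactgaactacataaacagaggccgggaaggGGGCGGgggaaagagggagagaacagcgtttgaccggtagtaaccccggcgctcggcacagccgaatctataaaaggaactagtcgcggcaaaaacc
The boxes of Vldlr lie 78 to 74 and 42 to 37 bases before the start, those of Abca1 163 to 158 and 97 to 92 bases before it. The repeat that LXR binds, searched as its hexamer in tandem, and the STAT palindrome TTCNNNGAA had no match in these windows, which says only that these letters are not there. This LXR repeat was in none of the 41 windows of these genes and in 0.0152% of all windows. It was searched as exact letters only. Variants of the LXR repeat and of the STAT palindrome were not searched. A window without a match, that of Abca1 included, may therefore still hold a variant that LXR or STAT proteins bind.

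Lipa, Lrp1 and Lpl were lower wherever they were called. Lipa, the lysosomal acid lipase that frees cholesterol from lipoprotein esters, was at 8.80, 8.51 and 9.22 on v-Src arrays and at 9.09, 9.38 and 8.90 on STAT3-C arrays, against 10.03, 10.53 and 10.15 on control arrays. It was lower in both lines at each of its 3 probesets, and at the main one the log2 fold change was -1.39 in v-Src cells (SE 0.202, limma adjusted p = 0.00228) and -1.11 in STAT3-C cells (SE 0.165, limma adjusted p = 0.00155). Lrp1, a large endocytic receptor that binds apolipoprotein E, was at 10.87, 10.35 and 11.09 in v-Src cells and at 10.10, 10.52 and 9.69 in STAT3-C cells, against 11.33, 11.28 and 11.32 in control cells. No array of either transfected line reached the control arrays. Its log2 fold change was -0.54 in v-Src cells (SE 0.175, limma adjusted p = 0.0595) and -1.20 in STAT3-C cells (SE 0.188, limma adjusted p = 0.00194). The v-Src value passed without v-Src 6 (-0.69, limma adjusted p = 0.0283), and the second probeset, 1442849_at, was called lower in both lines (-0.73 in v-Src cells and -0.61 in STAT3-C cells).

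Lpl, lipoprotein lipase, was called lower in STAT3-C cells. Its log2 level was 9.34, 9.62 and 9.42 in v-Src cells and 9.22, 9.44 and 9.52 in STAT3-C cells, against 9.57, 10.85 and 10.85 in control cells. Control 1 lay within or near the range of the transfected lines and the other control arrays above it. The change in log2 level was -0.97 in v-Src cells (SE 0.332, limma adjusted p = 0.0689) and -1.03 in STAT3-C cells (SE 0.318, limma adjusted p = 0.0413). Without control 1 the v-Src value was -1.40 (adjusted p = 0.000789). With control 1 kept it also passed in 1 fit of all 9 arrays (-0.97, limma adjusted p = 0.0294), on the brighter probesets alone (adjusted p = 0.0455) and in the mean of both probesets (-1.13, adjusted p = 0.0393). The STAT3-C call was lost when any other array of that comparison was left out, with adjusted p values of 0.0848 to 0.143 and log2 fold changes of -1.10 to -0.82. The second probeset, 1431056_a_at, was lower in both lines, by a log2 fold change of -1.28 in v-Src cells (limma adjusted p = 0.0373) and -1.81 in STAT3-C cells (adjusted p = 0.00525).

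Apol6, of the apolipoprotein L family, was at 7.44, 7.39 and 7.45 in v-Src cells and at 7.48, 7.58 and 7.62 in STAT3-C cells, against 6.89, 6.84 and 6.47 in control cells. The transfected arrays lay within a narrow band above the controls. It was higher by 0.69 in v-Src cells (SE 0.119, limma adjusted p = 0.00466) and by 0.83 in STAT3-C cells (SE 0.126, limma adjusted p = 0.00175) on the log2 scale, and without control 3 the v-Src value was 0.56 and below the fold threshold. Apoe, a ligand of Vldlr and Lrp1, was below the lower quartile on all 9 arrays, at 4.19 to 4.62 in v-Src cells and 4.13 to 4.36 in STAT3-C cells, against 3.87 to 4.19 in control cells, and was not called in either comparison.

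Set directly against STAT3-C cells, v-Src cells were higher for 3 of the 39 genes (Lss, Srebf1 and Elovl6) and lower for 2 (Pmvk and Ebp), where 4.84% of all genes were called higher and 6.83% lower. The median log2 fold change of the 39 genes was 0.20 and that of all genes -0.03. Srebf1 had the smallest adjusted p of these, with a log2 fold change of 0.62 (SE 0.0909, limma adjusted p = 0.00397). Elovl6 was higher by 0.81 (adjusted p = 0.0357) and Lss by 0.70 (adjusted p = 0.0228) on the log2 scale. Lss was at 8.97, 8.82 and 9.43 in v-Src cells against 8.49, 8.42 and 8.20 in STAT3-C cells, without overlap. Pmvk, phosphomevalonate kinase, was at 7.19, 7.09 and 7.35 in v-Src cells against 7.89, 7.96 and 7.59 in STAT3-C cells, a log2 fold change of -0.60 (SE 0.120, limma adjusted p = 0.0127). Ebp had -0.59 (adjusted p = 0.0390).

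Each of these 5 calls was lost when some array was left out. Lss lost its call in 5 of the 6 leave-outs, with adjusted p values up to 0.0669, or with a fold change below threshold without v-Src 6 (0.52), and Elovl6 in 5 of 6, with adjusted p values of 0.0514 to 0.122. Ebp lost it in 5 of 6, among them without STAT3-C 1 (-0.39), and Pmvk without v-Src 5 (-0.54), STAT3-C 1 (-0.57) or STAT3-C 2 (-0.53). Srebf1 lost it without STAT3-C 1 (0.55, limma adjusted p = 0.0179) and in no other leave-out. Ebp was also under the fold threshold after renewed quantile normalization (-0.49), Elovl6 was not called in 1 fit of all 9 arrays (0.81, limma adjusted p = 0.0712), and neither Lss (0.17) nor Elovl6 (0.43) was called when the probesets of a gene were averaged.

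All 6 desaturases and elongases had a positive value in the direct comparison, 0.36 to 0.81 on the log2 scale with a median of 0.61. Each had an unadjusted p under 0.05 in limma, and Elovl6 alone was called at its main probeset. Among the 39 genes, 17 had such an unadjusted p, 14 of them higher and 3 lower in v-Src cells. The share of all genes with such a p was not counted, and the 6 genes were not tested as a set. Other probesets of Scd2 passed at 1.20 (1415823_at, limma adjusted p = 0.0201) and 1.83 (1415824_at, adjusted p = 0.00187), and 1419031_at of Fads2 at 0.73 (adjusted p = 0.0201). Abca1 was higher in v-Src cells at 2 of 3 probesets, 1.59 at 1421839_at (limma adjusted p = 0.0139) and 1.90 at 1450392_at (adjusted p = 0.0192), and had 0.65 at the main one (adjusted p = 0.0777). For Vldlr the probesets pointed in different directions, -0.33 at the main one (adjusted p = 0.111) and 1.56 at 1438258_at (adjusted p = 0.00164), where it was 9.09, 8.58 and 9.29 in v-Src cells against 7.28, 7.50 and 7.50 in STAT3-C cells. Whether the probesets read different transcripts was not tested. The 95% interval of the direct difference ran from -0.55 to 0.41 for Fasn and from -0.24 to 0.13 for Scap.

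**Figure D5:**
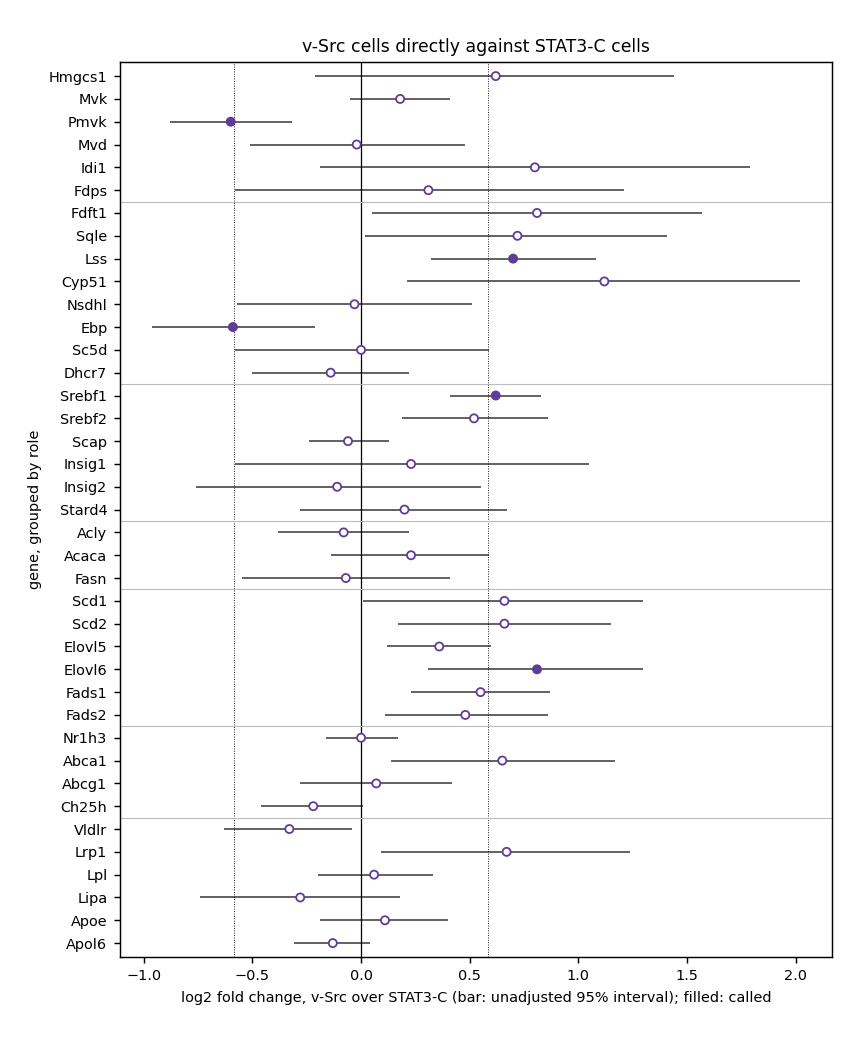
Log2 fold change of the 39 genes in v-Src cells over STAT3-C cells, with unadjusted 95% intervals from limma and dotted lines at a fold of 1.5 in either direction. Filled points passed both thresholds. Lss, Srebf1 and Elovl6 lie right of zero and Pmvk and Ebp left of it, and all 6 desaturases and elongases lie right of zero.

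Across probesets, 20 of the 89 were called higher and 8 lower in v-Src cells, 15 higher and 16 lower in STAT3-C cells, and 9 higher and 2 lower in the direct comparison. Over all 45037 probesets, 8.75% were called higher and 8.10% lower in v-Src cells, 9.68% and 8.58% in STAT3-C cells, and 4.99% and 5.33% in the direct comparison. No gene had probesets called in opposite directions within 1 comparison. In each comparison 4 genes were called at a probeset other than the main one alone, which were Acaca, Fads2, Lrp1 and Lpl in v-Src cells, Sc5d, Insig2, Acly and Scd1 in STAT3-C cells, and Scd2, Fads2, Abca1 and Vldlr in the direct comparison.

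Among 59 other genes of lipid pathways that were measured, v-Src cells had 15 higher and 8 lower, STAT3-C cells had 9 higher and 8 lower, and the direct comparison had 11 higher and 4 lower. Beside these stand 9.54% of all genes higher and 10.4% lower in v-Src cells, 11.9% and 10.3% in STAT3-C cells, and 4.84% and 6.83% in the direct comparison. Fabp4, a fatty acid carrier, had log2 levels of 10.29, 9.21 and 9.72 in v-Src cells and 11.51, 12.07 and 11.38 in STAT3-C cells, against 5.68, 6.57 and 6.87 in control cells, and was higher by 3.37 and 5.28. Apod, apolipoprotein D, was at 7.25, 7.38 and 7.20 in v-Src cells and at 7.04, 7.08 and 7.26 in STAT3-C cells, against 11.07, 12.87 and 11.32 in control cells, a log2 fold change of -4.48 and -4.63. Lrp8, a receptor of the same family as Vldlr, was higher by 1.97 in v-Src cells (SE 0.233, limma adjusted p = 0.00088), and Agpat2, an acyltransferase of phospholipid and triglyceride synthesis, by 1.91 in STAT3-C cells (SE 0.124, limma adjusted p = 2.59e-05). In the direct comparison the largest calls were Fabp5, another fatty acid carrier (-2.26), Fabp4 (-1.91) and Apobec1, which edits apolipoprotein B mRNA in the intestine (1.70).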

How the data were processed

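RNA of 9 cultures was measured on Affymetrix mouse genome arrays, and groups and array numbers were taken from the sample titles. The authors ran Robust Multichip Average (RMA) and deposited log2 values, 1 column an array. By their methods, RMA was run on control and v-Src arrays together and on control and STAT3-C arrays together, and which run gave the control columns is not given in the sources used here. If the transfected lines come from separate runs, the control columns share a run with at most 1 of them, and line and run then cannot be told apart in the direct comparison and in 1 of the comparisons with control cells.

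The 64 control probesets were left out. Each comparison was fitted on its 6 arrays with limma 3.58.1 in R 4.3.3 (lmFit, eBayes), and p-values were adjusted by Benjamini-Hochberg over 45037 probesets. The test of the methods, SAM, was not run here. In the array annotation, whose symbols can be old, 34945 probesets carried 1 symbol, 932 several and 9160 none. Every listed gene is named, with values on every array where it was called, and of the other lipid genes the 3 with the largest change among those called in each comparison. Members, gene lists and markers were chosen with earlier results of these data known. The fit was tested on simulated data. Precision is limited by 3 arrays a line, and the smallest exact permutation p for 3 against 3 arrays is 0.1. Fits were repeated with 1 array less, with all 9 arrays, after renewed quantile normalization or centring on array medians, on the brighter probesets alone, at other thresholds, with a trended robust prior, with probesets averaged by gene, and with the replicate number as a block.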

Additional observations from a re-analysis of the deposited data

Results flagged for a closer look

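The direct comparison tests whether the lines differ in their change against the shared controls, and 5 genes passed it. Relative to STAT3-C cells, v-Src cells had a log2 difference of 0.70 for Lss, 0.62 for Srebf1 and 0.81 for Elovl6, and of -0.60 for Pmvk and -0.59 for Ebp (adjusted p = 0.0228, 0.00397, 0.0357, 0.0127 and 0.0390 in this order, from limma). For Srebf1 and Elovl6 the values against control cells were 0.03 and -0.23 in v-Src cells and -0.59 and -1.03 in STAT3-C cells, and for Ebp 0.45 in v-Src cells and 1.04 in STAT3-C cells. For Lss they were 0.19 and -0.51, and for Pmvk -0.05 and 0.55, of which none passed both thresholds.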

How the results depend on the processing

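No gene changed direction while called under any alternative. Calls kept under all alternatives that were run, stricter thresholds included, were 5 of 11 in v-Src cells (Sqle, Abca1, Ch25h, Vldlr and Lipa), 6 of 15 in STAT3-C cells (Ebp, Abca1, Ch25h, Vldlr, Lrp1 and Lipa) and 0 of 5 in the direct comparison. With v-Src, the number of the 39 genes higher was 5 at a fold of at least 2 and 4 at an adjusted p under 0.01, beside 8, and the number lower was 5 where the probesets of a gene were averaged, beside 3. Over all genes the number higher was 856 and 1492 at these thresholds, beside 1736, and the number lower was 1531 on averaged probesets, beside 1889. In the direct comparison 6 of the 39 were higher and 1 lower after a second quantile normalization, 0 and 0 at a fold of at least 2, 6 higher without a fold threshold, and 1 higher and 0 lower at an adjusted p under 0.01, beside 3 and 2. All genes gave 958 higher and 1129 lower after that normalization, and 292 and 368 at a fold of at least 2. Without a fold threshold 1802 of all genes were higher. At an adjusted p under 0.01 the counts were 598 higher and 901 lower, beside 881 and 1242. When each array was left out in turn, the member genes higher and lower ranged from 5 to 9 and 3 to 4 in v-Src cells, from 5 to 8 and 5 to 8 in STAT3-C cells, and from 1 to 5 and 0 to 2 in the direct comparison. Over all genes the ranges were 1591 to 1778 higher and 1709 to 1977 lower in v-Src cells. They were 1932 to 2211 and 1745 to 1964 in STAT3-C cells, and 697 to 978 and 926 to 1295 in the direct comparison. The lowest count of member genes higher in v-Src cells came without v-Src 6 or control 1 (5 each), and that of member genes lower in STAT3-C cells without STAT3-C 1 (5). In the direct comparison 5 member genes were higher without v-Src 5 and 1 without v-Src 6 or STAT3-C 3, and 0 were lower without v-Src 5, STAT3-C 1 or STAT3-C 2 and 1 without v-Src 1 or v-Src 6. Calls gained when 1 array was left out were Ebp (0.62, without control 3), Insig2 (0.60, v-Src 5), Lrp1 (-0.69, v-Src 6) and Lpl (-1.40, control 1) in v-Src cells, Pmvk (0.75, control 3), Lss (-0.69, control 2) and Sc5d (0.82, control 3 or STAT3-C 2) in STAT3-C cells, and Cyp51 (1.51, STAT3-C 1), Srebf2 (0.64, v-Src 5), Scd1 (0.94, v-Src 5), Fads1 (0.65, STAT3-C 1), Fads2 (0.66, v-Src 1), Abca1 (0.86, STAT3-C 2) and Lrp1 (0.87, v-Src 5) in the direct comparison. With STAT3-C against control the arrays share only their numbers, since deviations of same-numbered arrays correlated at -0.0926, 0.0645 and 0.0446 and not every array correlated best with its own number. The fit with the replicate block called 7 member genes higher and 9 lower, beside 6 and 9, and added Sc5d (0.64, limma adjusted p = 0.0446). Over all genes it called 2197 higher and 1903 lower, beside 2164 and 1866. No block could be fitted for v-Src against control or STAT3-C, whose arrays share 1 number. Changes near the lower quartile, as for Apoe, Ch25h and 4 probesets of Vldlr, are limited by background.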

Other observations

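Of 12 other sterol genes measured, 4 were called higher in v-Src cells than in STAT3-C cells and none lower. In that comparison 4.84% of all genes were called higher and 6.83% lower. The 4 were Msmo1, Hsd17b7 (0.96 on the log2 scale, limma adjusted p = 0.0180), Npc1 and Stard3 (0.67, 0.00433). These genes, Plin2 and Pparg were chosen after their values were seen. Msmo1, which removes methyl groups from lanosterol, was at 10.83, 10.52 and 11.45 on v-Src arrays and at 10.26, 8.94 and 9.43 on STAT3-C arrays, against 9.19, 9.36 and 9.95 on control arrays, with log2 fold changes of 1.43 in v-Src cells (limma adjusted p = 0.00763) and 0.04 in STAT3-C cells, and 1.39 in the direct comparison (adjusted p = 0.0319). Its highest arrays were those on which the sterol enzymes peaked, a pattern that 3 of these 12 genes had. Npc1, which exports cholesterol from lysosomes, was at 8.58, 7.93 and 8.61 in v-Src cells and at 7.33, 7.26 and 6.79 in STAT3-C cells, against 7.72, 8.02 and 7.74 in control cells, with log2 fold changes of 0.55 in v-Src cells (limma adjusted p = 0.0758) and -0.70 in STAT3-C cells (0.0123), and 1.24 in the direct comparison (adjusted p = 0.00758). Plin2, a coat protein of lipid droplets, was higher by 1.75 in v-Src cells (adjusted p = 0.000609) and had 0.54 in STAT3-C cells (adjusted p = 0.0779). Pparg, a nuclear receptor that switches on Fabp4 in adipocytes, was lower in both lines while Fabp4 was higher, by log2 fold changes of -1.26 in v-Src cells and -1.32 in STAT3-C cells, at levels of 5.15 to 5.29 and 4.96 to 5.32 near the lower quartile, against 6.35 to 6.66 in control cells.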
